A study of Mus musculus with 7 samples.

Results

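The T cell costimulation and checkpoint ligands described here are 9 genes of tumor-associated macrophages, chosen by symbol, out of 24084 genes listed in at least 1 library. They are Cd274, Pdcd1lg2, Cd80, Cd86, Cd40, Icosl, Havcr2, Lgals9 and Cd276, and each was found in all 7 libraries and passed the filter on low counts. The libraries were made from F4/80-positive cells sorted from Lewis lung carcinomas, tumors of a transplanted mouse lung cancer line that had been injected under the skin. In 3 libraries (Dicer1-deleted) the mice were homozygous for LysM-Cre and for the floxed Dicer allele (LysM-Cre;Dicer-/-, D-/-), and in 4 (control) they were homozygous for LysM-Cre with an intact Dicer1 (LysM-Cre; Dicer+/+, D+/+). Both groups therefore carry the Cre recombinase, which is driven by the lysozyme M locus and so acts in neutrophils and monocytes as well as macrophages. Dicer1 encodes the ribonuclease that releases mature microRNAs from their precursors, and the design asked what its loss does to the activation and immune functions of tumor macrophages. The sources used here give no strain, sex or age and no number of animals behind a library, so a p-value measures only the spread between these libraries.

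A T cell needs a costimulatory signal besides its antigen receptor. Macrophages and dendritic cells give it mainly through CD80 and CD86, which bind CD28, while the same proteins restrain T cells through CTLA-4. CD274 (PD-L1) and PDCD1LG2 (PD-L2) bind the inhibitory receptor PD-1, CD40 receives the T cell's CD40 ligand and licenses the presenting cell, and ICOSL binds ICOS. TIM-3, encoded by Havcr2, is an inhibitory receptor that macrophages and dendritic cells also carry, galectin-9 (Lgals9) is among its ligands, and CD276 (B7-H3) is a B7 family protein whose receptor on T cells is not settled.

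The libraries held 42974524 to 51152370 uniquely placed reads. Dicer1 itself was at 7.85, 6.86 and 7.86 CPM (read counts scaled to a common library size, with TMM factors) in the Dicer1-deleted libraries and at 15.7, 15.8, 18.6 and 17.1 CPM in the controls, without overlap. Even so, Dicer1 did not pass in edgeR, the main test used below (adjusted p = 0.15 over all genes). It passed in DESeq2 (4.96e-05). Macrophage markers were abundant in every library: the summed level of 11 of them was 12971 to 20563 CPM in Dicer1-deleted and 13288 to 20791 CPM in control libraries. Single markers moved. Lyz2 fell in DESeq2 (adjusted p = 0.0144, edgeR 0.235) from 139 ± 50.6 to 57.0 ± 8.97 CPM. It is the lysozyme M gene, whose locus drives the Cre in both groups, so its level is not read here as macrophage content. Cd14 was at 2643 to 3837 CPM in Dicer1-deleted and 4255 to 4685 CPM in control libraries. Fcgr1 was higher on average with overlap, at 579 to 1360 CPM in Dicer1-deleted and 355 to 590 CPM in control libraries. Its log2 fold change was 0.91 ± 0.38 (SE; adjusted p = 0.562 in edgeR and 0.294 in DESeq2). Of B cell and epithelial markers, Pax5 and Epcam were at no more than 0.0508 and 0.126 CPM. Cd79b was at 13.4 to 27.3 CPM in Dicer1-deleted and 5.29 to 9.47 CPM in control libraries. Over all libraries Cd22 was at 2.64 to 5.19 and Cdh1 at 1.21 to 12.5 CPM. All 13 T and NK cell markers were listed, at a sum of 12.1 to 24.5 CPM in Dicer1-deleted and 13.3 to 15.3 CPM in control libraries. These sums hide moves in both directions. Of the 12 tested, 5 were higher and 1 lower at an unadjusted edgeR p under 0.05, against 3.88% and 4.14% of all genes. Neutrophil markers (8 of 9 listed) summed to 253.5 to 314 and 177 to 627 CPM, most of it Mmp9 and Mmp8. Of the others, Retnlg reached 60.3 CPM and Ly6g did not exceed 0.102 CPM. Of the 6 tested, 5 had a positive log2 fold change, with a median of 0.73. At an unadjusted edgeR p under 0.05, 3 were higher and 1, Mmp9, was lower. Besides Mmp8, the higher ones were Csf3r (0.89 ± 0.30, without overlap) and S100a9 (2.11 ± 0.90, with overlap). Neither passed in edgeR (adjusted p = 0.42 and 0.593) or DESeq2 (0.155 and 0.25). The log2 fold change of Mmp9 was -1.66 ± 0.69 (SE), with overlapping groups. Mmp9 did not pass in edgeR or DESeq2 (adjusted p = 0.577 and 0.218). Within the B cell, T and NK cell and neutrophil lists, Mmp8, Nkg7 and Cd79b rose in DESeq2 (adjusted p = 0.00582, 0.041 and 0.0161). Cd2 fell there (0.000743). None of these passed in edgeR (0.196, 0.297, 0.226 and 0.156). In such bulk libraries, fewer cells of a type and less RNA per cell cannot be told apart. Dicer1-deleted replicate 2 stood apart. The median level of long transcripts (at least 4360 nt) relative to short ones (at most 1424 nt), on a log2 scale centred on the average library, was -0.82 there, -0.37 and -0.45 in control replicates 1 and 2, and 0.33 to 0.46 in the other 4 libraries.

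Per length, galectin-9 and CD86 transcripts were the most abundant of the 9 and PD-L2 transcripts the least. In the controls the median of the deposited RPKM (reads scaled to gene length and library size) was 160 for Lgals9, 86.1 for Cd86, 71.8 for Havcr2, 23.6 for Cd274, 20.7 for Cd40, 19.2 for Cd80, 4.82 for Cd276, 3.11 for Icosl and 1.31 for Pdcd1lg2. The control range of Cd274 (11.7 to 101) overlapped those of Cd86 (63.7 to 103), Havcr2 (41.7 to 123), Cd40 and Cd80, and the ranges of Cd276 and Icosl overlapped too. Lgals9 (137 to 212) lay above all the others, and Pdcd1lg2 (0.59 to 1.81) below them. In Dicer1-deleted libraries the first 4 places and the last 3 were held by the same genes, and Cd40 and Cd80 exchanged places, at medians of 25.02 and 25.61.

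In GENCODE M21 (GRCm38) the genes lie on 6 chromosomes. Cd274 (chr19:29367455-29388095, plus strand) and Pdcd1lg2 (chr19:29410919-29471161, plus) are neighbours, and Cd80 (chr16:38455561-38496335, plus) and Cd86 (chr16:36603869-36666081, minus) lie 1.79 Mb apart. Cd40 is at chr2:165055627-165072948 (plus), Icosl at chr10:78069302-78083913 (plus), Havcr2 at chr11:46454935-46481255 (plus), Lgals9 at chr11:78962974-78984946 (minus) and Cd276 at chr9:58524298-58555437 (minus).

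None of the 9 genes passed edgeR's quasi-likelihood test, adjusted over all 16226 tested genes by the Benjamini-Hochberg method at 0.05. In this comparison 0.0247% of all genes were called, 0.00616% higher and 0.0185% lower in Dicer1-deleted libraries. None of the 9 passed in DESeq2 or limma-voom either, where DESeq2 called 2.50% of all genes, 0.924% higher and 1.57% lower. At an unadjusted edgeR p under 0.05, 2 of the 9 were listed, Cd86 and Cd276, both higher, against 8.01% of all genes, 3.88% higher and 4.14% lower. The same 2 were the only members whose groups did not overlap, and both were higher in Dicer1-deleted libraries. Over all genes 9.31% did not overlap, 3.86% in that direction and 5.44% in the other. The median log2 fold change was 0.39 over the 9 members, 6 of them positive, and 0.03 over all genes, 52.6% of them positive.

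**Figure D1:**
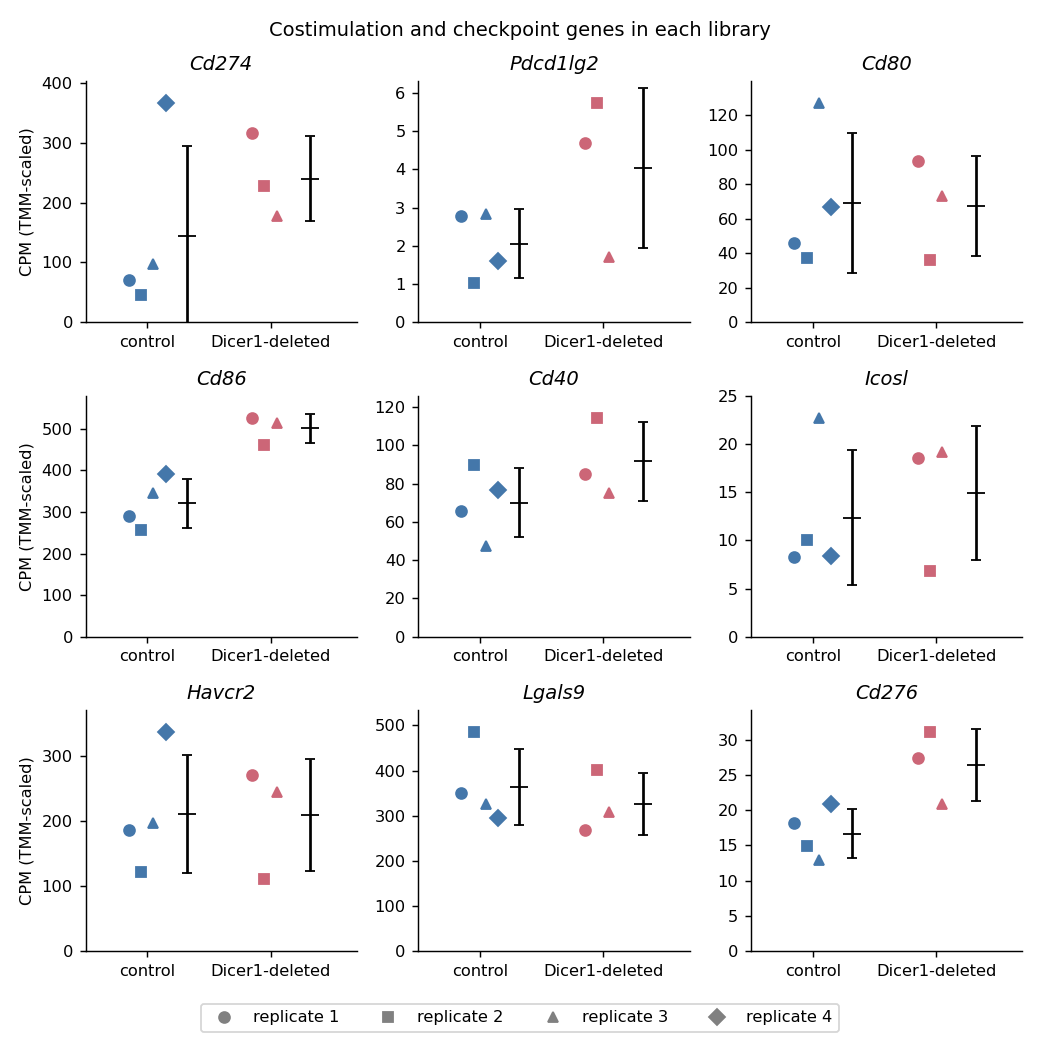
TMM-scaled CPM (vertical axes, from 0) of the 9 genes in each library, control in blue and Dicer1-deleted in red, with the marker shape giving the replicate. Bars beside the points are the mean and SD (n = 4 and 3, the lower SD of control Cd274 is cut at 0), and the groups of Cd86 and Cd276 do not overlap, while 1 control library of Cd274 lies at 367 CPM above all others.

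Cd86, the more abundant of the CD28 ligands' transcripts, was higher in every Dicer1-deleted library. It was at 527, 461 and 514.5 CPM in Dicer1-deleted replicates 1 to 3 and at 290.5, 257, 346 and 391 CPM in control replicates 1 to 4. The lowest Dicer1-deleted library thus lay above the highest control, and the Dicer1-deleted libraries were close to each other. The mean was 501 ± 35.1 CPM against 321 ± 59.2 CPM (SD, n = 3 and 4), a ratio of 1.56. Its log2 fold change was 0.64 ± 0.26 (SE), with a 95% interval of 0.07 to 1.22, and the adjusted p over all genes was 0.534 in edgeR and 0.155 in DESeq2. Leaving out each library in turn gave 0.57 to 0.75 in edgeR, and a correction for transcript length gave 0.69 ± 0.22. With the L4 or L5 code of the titles, whose meaning is not stated, as a covariate it was 0.76 ± 0.28. Dicer1-deleted replicates 2 and 3 and control replicate 2 carry L4 and all others L5, so the code is spread unevenly over the groups. Among markers of other cells, 12 tumor, fibroblast and endothelial genes summed to 56.7 to 91.8 CPM in Dicer1-deleted and 19.3 to 42.6 CPM in control libraries, most of the former Pecam1, and 8 B cell genes to 20.7 to 31.5 and 9.66 to 16.1 CPM, most of it Cd79b. Pecam1 was at 69.6, 39.8 and 36.3 CPM in Dicer1-deleted and 3.23 to 11.9 CPM in control libraries. It passed in DESeq2 (adjusted p = 2.67e-05) and not in edgeR (0.111). The groups of Cdh5 and Kdr, also endothelial genes, overlapped. The part of such other cells in the level of Cd86 or Cd276 was not tested.

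Because Dicer1 releases mature microRNAs, the 3' UTRs of the 9 genes were searched for matches to microRNAs. The search used bases 2 to 8 (the seed) of 20 microRNAs of myeloid cells, whose levels were not examined here. The longest annotated UTR of each gene was used. Cd86 held 1 match each for let-7a, miR-146a and miR-26a. The let-7a match is shared with Havcr2 and Cd276, and the sites for let-7a, miR-146a, miR-26a and miR-29a were in 10.4%, 12.2%, 11.4% and 15.5% of the 3' UTRs of 12132 tested genes. The mature sequences (RefSeq, GRCm38.p6) are shown for these 4 microRNAs, each with a match in 1 or both of the genes without overlap, with the seed in capitals.
let-7a-5p: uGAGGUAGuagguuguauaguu
miR-146a-5p: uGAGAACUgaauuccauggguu
miR-26a-5p: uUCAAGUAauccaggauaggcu
miR-29a-3p: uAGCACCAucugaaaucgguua

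The Cd86 matches lie on the minus strand of chromosome 16 in GENCODE M21 (GRCm38), in the 3' UTR of 1493 nt. In the following lines the seed match is in capitals. Only the miR-146a match is followed by an A, the base opposite position 1 of the microRNA that often accompanies effective sites.
Cd86 let-7a (chr16:36604919-36604925): tacctggacagCTACCTCttcagtcagga
Cd86 miR-146a (chr16:36604705-36604711): caacagcacagAGTTCTCagtgctggcaa
Cd86 miR-26a (chr16:36605044-36605050): tcaatctctccTACTTGAgatcagattct

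Cd276 was also higher in every Dicer1-deleted library, at a far lower level and with a narrow gap between the groups. It was at 27.3, 31.1 and 20.9 CPM in Dicer1-deleted replicates 1 to 3 and at 18.1, 15.0, 12.9 and 20.8 CPM in control replicates 1 to 4. Dicer1-deleted replicate 3, at 20.92 CPM, was barely above control replicate 4, at 20.83 CPM. The means were 26.4 ± 5.12 and 16.7 ± 3.502 CPM (SD, n = 3 and 4), and the log2 fold change was 0.66 ± 0.27 (SE), with a 95% interval of 0.07 to 1.26. Its adjusted p was 0.536 in edgeR and 0.323 in DESeq2, and leaving out single libraries gave 0.52 to 0.81. The 5' end of Cd276 overlaps Gm10657 on the opposite strand, and the unstranded kit does not separate their reads.

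Of the microRNAs just listed, Cd276 held 2 matches for miR-29a and 1 for let-7a. B7-H3 is a known target of miR-29 in human cells. Its 3' UTR of 2041 nt lies on the minus strand of chromosome 9. The second miR-29a match is followed by an A.
Cd276 let-7a (chr9:58525291-58525297): catggccaggtCTACCTCtctgctccact
Cd276 miR-29a first (chr9:58524949-58524955): aggcgtgagcaTGGTGCTgggtactaggg
Cd276 miR-29a second (chr9:58524609-58524615): ccttcttaccaTGGTGCTattctggagct

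Seed matches of the 20 microRNAs were found in all 9 UTRs, from 1 in Cd40 to 6 in Cd80, and 14 of the microRNAs had at least 1. Havcr2 has, besides the let-7a match, 1 for miR-223 and 1 for miR-34a. Cd274 has 2 for miR-15a and 1 each for miR-155, miR-17 and miR-142a-5p, and Pdcd1lg2 has 2 for miR-17 and 1 for miR-19b. Whether levels go with matches was not tested. A match is a run of letters and not a measured site.

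Cd274, the PD-L1 gene, varied more among control libraries than any other member. It was at 316, 227 and 177 CPM in Dicer1-deleted replicates 1 to 3 and at 69.8, 45.2, 97.6 and 367 CPM in control replicates 1 to 4. The first 3 controls were all below the lowest Dicer1-deleted library, and control replicate 4 was above the highest. The means were 240.1 ± 70.6 and 145 ± 149.5 CPM (SD, n = 3 and 4), with a coefficient of variation of 103% in the controls. Its log2 fold change was 0.73 ± 0.65 (SE), with a 95% interval of -0.72 to 2.18, and the adjusted p was 0.969 in edgeR and 0.939 in DESeq2. It was 1.18 in limma-voom, 1.29 with library quality weights and 1.46 with the L code as covariate, none of which passed. Without control replicate 4 it was 1.76 ± 0.39, with an adjusted p of 0.222 in edgeR, and 1.79 ± 0.41 in DESeq2, with an adjusted p of 0.00124. With any 1 of the other 6 libraries left out the edgeR value was 0.44 to 0.91. An antisense transcript, AC119228.1, lies within Cd274 and its reads are not separated. The miR-155 match of Cd274 is shown because miR-155 is a microRNA of activated macrophages.
miR-155-5p: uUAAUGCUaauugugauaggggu
Cd274 miR-155 (chr19:29386365-29386371): gttcattgtctAGCATTAcatttacctca

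The library with the highest Cd274 among the controls also had the highest Irf1, which encodes a transcription factor through which interferon-gamma induces PD-L1. Irf1 was at 313 CPM in control replicate 4 and at 154, 160 and 110.5 CPM in the other controls, and at 425, 243 and 263 CPM in the Dicer1-deleted libraries. It did not pass, with a log2 difference of 0.75 ± 0.39 (SE, adjusted p = 0.734 in edgeR). Without control replicate 4 the value of Irf1 was 1.13 in edgeR, and 1.15 in DESeq2 (adjusted p = 0.0413). Irf1 passed in DESeq2 in only 1 of the 7 fits with a library left out, this one, and the 7 ranged from 0.49 to 1.15. In edgeR they ranged from 0.45 to 1.13 and none passed. The part of this library in the Cd274 comparison is given by the values without it, and why it differs was not tested.

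**Figure D2:**
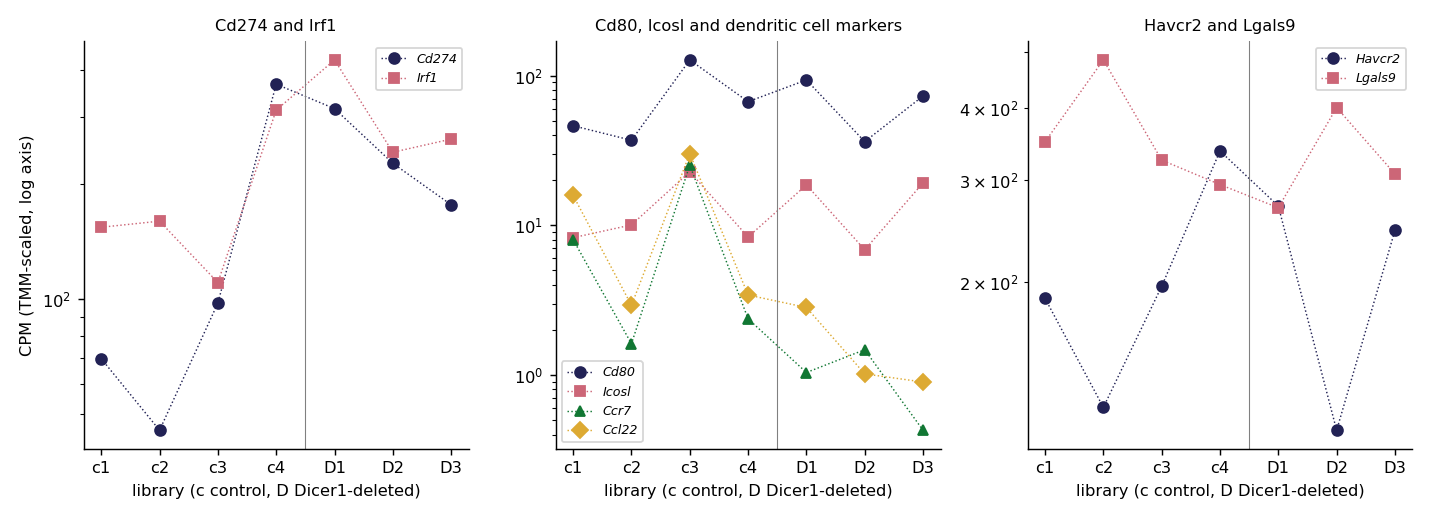
TMM-scaled CPM (log axis) by library, with controls c1 to c4 left of the line and Dicer1-deleted D1 to D3 right of it; dotted lines join the values of a gene and carry no order. Cd274 and Irf1 have their highest control value in c4, Cd80, Icosl, Ccr7 and Ccl22 in c3, and Lgals9 is highest in the 2 libraries where Havcr2 is lowest.

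Of 13 tested genes of PD-L1 induction and stability, 0 passed in edgeR and DESeq2. At an unadjusted edgeR p under 0.05, 1 was listed, against 8.01% of all genes. That gene, Ifngr2, a chain of the interferon-gamma receptor, was at 97.0, 103 and 107 CPM in Dicer1-deleted and at 62.3, 67.1, 74.3 and 67.4 CPM in control libraries, with a log2 difference of 0.60 ± 0.22 (SE, adjusted p = 0.462 in edgeR). Its groups did not overlap, nor did those of Stat3, both being higher in Dicer1-deleted libraries, as were 3.86% of all genes. The median of the list was 0.21, with 8 positive values. Ifngr1, the most abundant of the list, was at 182 to 585 CPM in Dicer1-deleted and 404 to 637 CPM in control libraries.

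Pdcd1lg2, the second PD-1 ligand gene, was hardly expressed. It was at 4.69, 5.74 and 1.71 CPM in Dicer1-deleted replicates 1 to 3 and at 2.77, 1.03, 2.84 and 1.60 CPM in the controls, which rest on 46 to 226 reads per library. Dicer1-deleted replicates 1 and 2 were above every control, and replicate 3 was among them. The log2 fold change was 0.97 ± 0.51 (SE), the largest estimate of the 9, with a 95% interval of -0.17 to 2.11 and an edgeR adjusted p of 0.734. Pdcd1lg2 begins 22.8 kb after the end of Cd274 on chromosome 19, and A930007I19Rik overlaps it on the opposite strand. The log2 ratio of the 2 PD-1 ligand transcripts, Cd274 to Pdcd1lg2, differed by 0.28 between the groups, 6.01 ± 0.68 in Dicer1-deleted and 5.73 ± 1.42 in control libraries (SD, n = 3 and 4), with an exact two-sided permutation p of 0.8 (0.8 adjusted over the 2 ratios tested). With 3 against 4 libraries this test could give no p below 0.0286.

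Cd80, the other CD28 ligand gene, had nearly equal group means. It was at 93.4, 36.2 and 73.0 CPM in Dicer1-deleted replicates 1 to 3 and at 46.2, 36.9, 127 and 66.9 CPM in control replicates 1 to 4. The groups overlapped throughout, with control replicate 3 highest and Dicer1-deleted replicate 2 lowest. Its log2 fold change was -0.04 ± 0.47 (SE), with a 95% interval of -1.10 to 1.02 and an edgeR adjusted p of 0.999. It was 0.43 without control replicate 3 and 0.26 without Dicer1-deleted replicate 2, so not even its sign was settled. On the log2 scale the ratio of Cd86 to Cd80 averaged 2.99 ± 0.61 with Dicer1 deleted and 2.36 ± 0.62 in the controls (SD, n = 3 and 4), a difference of 0.63 with an exact two-sided permutation p of 0.371 (0.743 adjusted over the 2 ratios).

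Icosl, the ICOS ligand gene, showed the same high control library as Cd80. It was at 18.6, 6.86 and 19.2 CPM in Dicer1-deleted replicates 1 to 3 and at 8.26, 10.05, 22.8 and 8.34 CPM in control replicates 1 to 4. Dicer1-deleted replicates 1 and 3 and control replicate 3 were high, and the other 4 libraries low. The log2 fold change was 0.27 ± 0.47 (SE), with a 95% interval of -0.79 to 1.33 (edgeR adjusted p = 0.996), and it was 0.75 without control replicate 3, 0.61 without Dicer1-deleted replicate 2 and 0.04 without Dicer1-deleted replicate 3. Over the 7 libraries Cd80 and Icosl had a Pearson correlation of log2 CPM of 0.85, one of 36 pairs among the members, which share the library and its length trend.

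Control replicate 3 was also the library with the most transcripts of several dendritic cell genes. Ccr7, the receptor that guides mature dendritic cells to lymph nodes, was at 25.2 CPM there and at 1.62 to 8.01 CPM in the other controls. Ccl22, a chemokine of mature dendritic cells, was at 30.1 CPM there and at 2.92 to 15.8 CPM in the other controls. In Dicer1-deleted libraries Ccr7 was at 0.427 to 1.47 CPM and Ccl22 at 0.897 to 2.82 CPM, and both fell in DESeq2 (adjusted p = 0.00999 and 0.00786), while Xcr1 and Batf3, genes of another type of dendritic cell, rose (adjusted p = 0.000756 and 0.0191). None of the 4 passed in edgeR, where the adjusted p-values were 0.345, 0.321, 0.156 and 0.254. Of the 14 dendritic cell markers 13 were tested, and their summed level was 139.5 to 933 CPM in Dicer1-deleted and 273 to 1758 CPM in control libraries, most of it Cd83. Zbtb46 and Flt3, also on this marker list, did not exceed 3.90 and 1.34 CPM. The part of dendritic cells in the levels of Cd80 and Icosl was not tested.

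Cd40, the receptor through which T cells activate macrophages, was somewhat higher on average, with overlap. It was at 85.2, 114.5 and 74.96 CPM in Dicer1-deleted replicates 1 to 3 and at 65.9, 89.9, 47.4 and 76.8 CPM in control replicates 1 to 4. Dicer1-deleted replicate 2 was highest and control replicate 3 lowest, and the groups overlapped. Its log2 fold change was 0.39 ± 0.29 (SE), with a 95% interval of -0.26 to 1.04 and an edgeR adjusted p of 0.932. Without Dicer1-deleted replicate 2 it was 0.19. Its 3' UTR has 1 match, for miR-15a, followed by an A.

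Genes of CD40 signaling to NF-kB were centered on no change. All 15 were tested, and 0 passed in edgeR and DESeq2. The median log2 fold change was 0.02 with 9 positive values. At an unadjusted edgeR p under 0.05, 1 was listed, against 8.01% of all genes. The 1 gene was Traf1, an adaptor of the TNF receptor family, at 75.4, 64.3 and 71.1 CPM in Dicer1-deleted and 112, 96.8, 107 and 93.0 CPM in control libraries, which is a log2 difference of -0.54 ± 0.23 (SE, adjusted p = 0.572 in edgeR). Its groups did not overlap, as for 5.44% of all genes in this direction. Nfkbia, the inhibitor of NF-kB and the most abundant of the list, was at 332.6 to 708.7 CPM in Dicer1-deleted and 135.5 to 817 CPM in control libraries. Birc3, a ubiquitin ligase of this pathway, was at 52.2 to 232 CPM and 156 to 219 CPM.

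**Figure D3:**
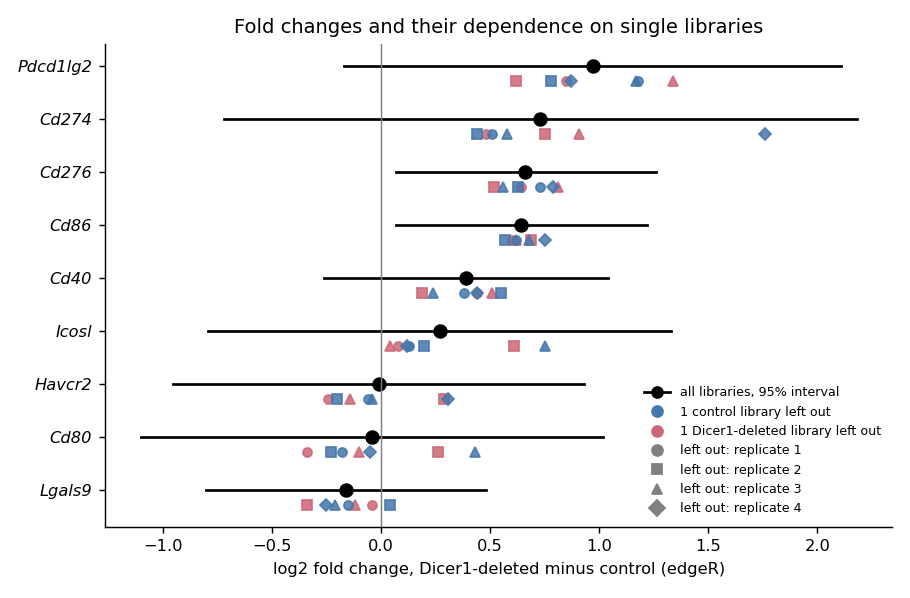
Log2 fold changes of the 9 genes (horizontal axis, Dicer1-deleted minus control, edgeR), in black with 95% intervals for all 7 libraries, and below each line the value with 1 library left out, blue for a control and red for a Dicer1-deleted library. The intervals of Cd86 and Cd276 lie above 0 and their values move little, that of Cd274 goes to 1.76 without control replicate 4, and those of Cd80, Havcr2 and Lgals9 fall on both sides of 0.

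Havcr2 and Lgals9, the TIM-3 receptor gene and the gene of a ligand, had nearly equal group means. Havcr2 was at 271, 111 and 246 CPM in Dicer1-deleted replicates 1 to 3 and at 187.5, 121.5, 197 and 337 CPM in control replicates 1 to 4. Its highest and its second-lowest value were both in control libraries, and the mean was 209 ± 86.1 against 211 ± 90.8 CPM (SD, n = 3 and 4). The log2 fold change was -0.01 ± 0.42 (SE), with a 95% interval of -0.95 to 0.93 and an edgeR adjusted p of 0.999. Lgals9 was at 269, 401 and 308 CPM in Dicer1-deleted replicates 1 to 3 and at 350, 485, 325 and 295 CPM in control replicates 1 to 4. Here control replicate 2 was highest and Dicer1-deleted replicate 1 lowest. Its log2 fold change was -0.16 ± 0.29 (SE), with a 95% interval of -0.80 to 0.48 and an edgeR adjusted p of 0.996.

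Across libraries the 2 genes ran against each other. Their log2 CPM had a Pearson correlation of -0.90 over the 7 libraries, the strongest of the 36 pairs. The 3 libraries in which short transcripts were over-represented, Dicer1-deleted replicate 2 and control replicates 1 and 2, held the 3 highest values of Lgals9, whose longest transcript has 1586 nt, and the 3 lowest of Havcr2, with 2721 nt. With a correction for transcript length the log2 fold changes were 0.00 ± 0.37 for Havcr2 and -0.10 ± 0.23 for Lgals9. Both lengths lie between the short and the long transcripts on which the trend was measured. Longer members differed in Dicer1-deleted replicate 2: Cd40 (2986 nt) and Cd276 (3603 nt) were highest there, and Cd80 (3173 nt) lowest. The part of the length trend in the correlation itself was not tested.

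The other tested TIM and galectin genes and their partners included 2 DESeq2 calls among 8, 1 in each direction, against 2.50% of all genes. There were 0 calls in edgeR, where 2 were listed at an unadjusted p under 0.05, against 8.01% of all genes. The median log2 fold change was 0.03. Timd4, a receptor for phosphatidylserine on resident macrophages, fell in DESeq2 (adjusted p = 0.0165), at 0.249, 0.102 and 0.0427 CPM in Dicer1-deleted against 0.419, 1.35, 1.24 and 0.912 CPM in control libraries. Lgals3bp, a secreted glycoprotein that binds galectins, rose in DESeq2 (adjusted p = 0.0333), from 197, 193, 202 and 228 CPM in control to 308, 335 and 318 CPM in Dicer1-deleted libraries. The groups of both genes did not overlap, as for 9.31% of all genes, and their edgeR adjusted p-values were 0.292 and 0.443. With single libraries left out, Timd4 passed DESeq2 in 2 of 7 fits (without Dicer1-deleted replicate 1 and without control replicate 1) and Lgals3bp in 1 of 7 (without control replicate 4). Galectin-3 and galectin-1 transcripts were the most abundant, Lgals3 at 1641 to 4364 CPM and Lgals1 at 1029 to 2848 CPM over all libraries.

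Among 23 further costimulatory and coinhibitory ligands 16 were tested, and 2 inhibitory ones fell in DESeq2, against 1.57% of all genes. Vsig4, a complement receptor of resident macrophages that inhibits T cells, was at 0.374, 0 and 0.128 CPM in Dicer1-deleted and at 5.995, 12.3, 5.54 and 3.56 CPM in control libraries. It was near or at 0 in each Dicer1-deleted library and above 3 CPM in each control. Its log2 fold change was -5.30 ± 0.91 (SE, edgeR adjusted p = 0.111), the DESeq2 adjusted p was 3.66e-09, and it passed DESeq2 in all 7 fits with a library left out. Ceacam1, an adhesion protein and a further ligand of TIM-3, fell from 66.0, 80.3, 81.3 and 79.4 CPM to 32.3, 20.5 and 49.0 CPM, by -1.18 ± 0.32 on the log2 scale (SE; adjusted p = 0.264 in edgeR and 0.0218 in DESeq2). It passed DESeq2 in 1 of the 7 fits with a library left out, the one without Dicer1-deleted replicate 3 (adjusted p = 0.000602), and the other 6 gave 0.0574 to 0.159.

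No gene of this list passed in edgeR, and the median log2 fold change was 0.12 with 9 positive values. At an unadjusted p under 0.05, 3 of the 16 were higher and 3 lower, against 3.88% and 4.14% of all genes. Tnfrsf14, the receptor HVEM, which also serves as a ligand of the inhibitory receptor BTLA, was at 15.7, 26.6 and 13.2 CPM in Dicer1-deleted and 11.6, 7.14, 4.81 and 8.98 CPM in control libraries. Vsir, the inhibitory protein VISTA, was at 255, 237 and 226 CPM and at 189, 201, 194 and 171 CPM. Both were higher without overlap, as were 3.86% of all genes. Their log2 fold changes were 1.19 ± 0.36 and 0.34 ± 0.23 (SE). Neither passed in edgeR (adjusted p = 0.352 and 0.877) or DESeq2 (0.0987 and 0.510). Cd48, a ligand of the lymphocyte receptors CD2 and 2B4 and the most abundant of the list, was at 420.7 to 708.6 CPM in Dicer1-deleted and 333 to 760 CPM in control libraries.

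**Figure D4:**
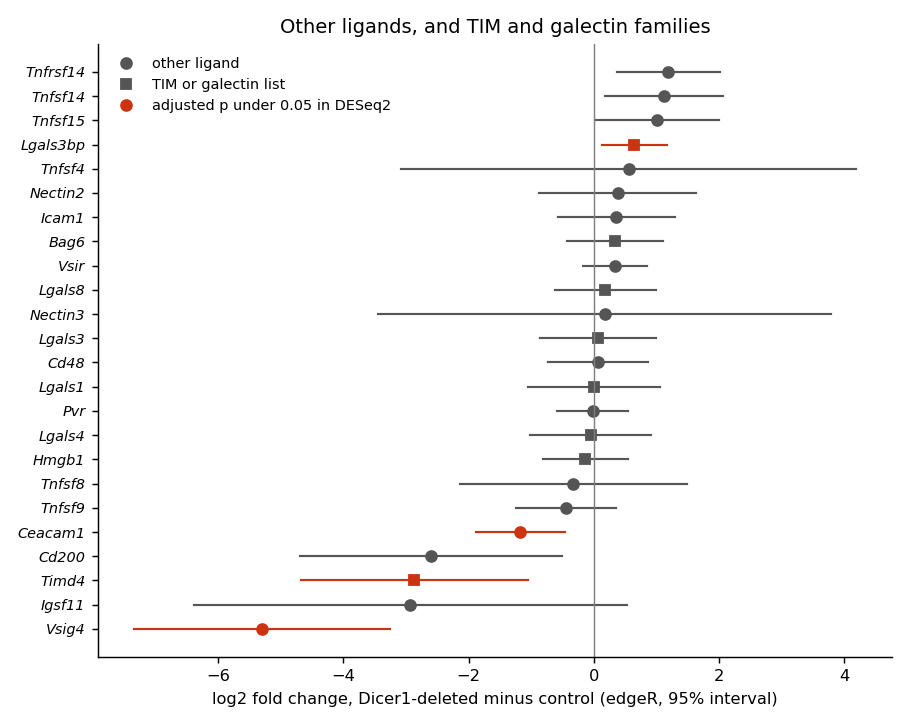
Log2 fold changes (horizontal axis, Dicer1-deleted minus control, edgeR) with 95% intervals of the 16 tested further ligands (circles) and 8 tested genes of the TIM and galectin list (squares), in red where the adjusted p in DESeq2 is under 0.05. Vsig4, Timd4 and Ceacam1 lie to the left and Lgals3bp to the right.

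The T cell receptors that these ligands bind were rare in the sorted cells. Of 15 such genes 12 were tested, and 0 passed in edgeR. At an unadjusted edgeR p under 0.05, 3 were listed, against 8.01% of all genes. Cd28 was at 1.45 to 4.37 CPM in Dicer1-deleted and 1.32 to 3.01 CPM in control libraries, Pdcd1 at 0.427 to 2.41 and 0.1795 to 0.984 CPM, and Icos at 0.128 to 1.45 and 0.146 to 0.729 CPM. Tnfrsf9, the receptor 4-1BB, was the exception, at 30.3, 121 and 35.2 CPM in Dicer1-deleted and 66.8, 33.7, 37.5 and 115 CPM in control libraries. Btla fell in DESeq2 (adjusted p = 0.0392) with overlapping groups, at 0.0415, 0.152 and 0 CPM in Dicer1-deleted and 0.126, 0.449, 3.25 and 0.729 CPM in control libraries, with most of its control reads in replicate 3. It did not pass in edgeR (adjusted p = 0.401), it missed the DESeq2 threshold without Dicer1-deleted replicate 1 or 3 (0.192 and 0.141), and without control replicate 2, 3 or 4 it has no value. The other 2 were higher: Cd27 was at 2.16, 2.69 and 1.49 CPM in Dicer1-deleted and 0.545, 1.26, 0.911 and 1.37 CPM in control libraries, without overlap, and Tnfrsf18 (GITR) at 1.495, 5.03 and 0.939 CPM and 0.839, 0.269, 1.06 and 0.593 CPM. Neither passed in edgeR (adjusted p = 0.596 and 0.463) or DESeq2 (0.363 and 0.173).

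Among 10316 other genes with a mean of at least 5 CPM, those whose log2 CPM most resembled a member over the 7 libraries were named by Pearson's r. For Cd86 they were Epb41 (0.982), a protein of the membrane skeleton, and Trafd1 (0.976), an interferon-induced regulator of innate signaling. For Cd274 they were Itsn2 (0.979), an endocytic scaffold protein, and Irak2 (0.976), a kinase of Toll-like receptor signaling. Havcr2 was closest to Hgf (0.991), which encodes hepatocyte growth factor, and Prpf38b (0.980), and Cd80 to Arhgap26 (0.993) and Spty2d1 (0.990). These are the best of 10316 genes over 7 libraries that share 2 groups and a length trend, and the values describe these libraries only.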

How the data were processed

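Per the labels, total RNA with an RNA integrity number above 7 was amplified with the SMARTer ultra low kit, made into libraries with Nextera XT and sequenced for 50 cycles per mate. These kits do not mark strand. For each gene the authors deposited unique read counts, expected counts that add fractions of multiply placed reads, and RPKM, all per the file headers; Bowtie2 is named in the submitters' processing notes, and the sources used here do not name a counting tool, genome build or annotation. Unique counts were all even, so both mates were counted. Reads are not unique molecules, so depth overstates precision. Unlisted genes were set to 0, and 21813 of 24084 IDs matched a symbol in a table of mouse gene names.

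Unique counts were fitted with edgeR 4.0.16 (R 4.3.3; filterByExpr, TMM, quasi-likelihood F test, Benjamini-Hochberg). SEs and 95% intervals come from that test. CPM are TMM-scaled. RPKM served for levels between genes. DESeq2 1.42.0, limma 3.58.1 (voom, with or without quality weights), other scalings and filters, the L4 or L5 code in the titles as a covariate, read pairs, multiply placed reads (expected counts, rounded) and leaving out each library were alternatives; a transcript length correction (lowess on the longest GENCODE transcript) and DESeq2 with each library left out were added after seeing the data. The common dispersion was 0.203. Ratios used a prior count of 2. The workflow was tested on simulated data. Some list genes and seed matches are not reported here. Replicate numbers only name libraries, since the labels number none. Members and gene lists were chosen with earlier results of these data known, so they carry no list test. Named genes are the members, Dicer1, list genes called by edgeR or DESeq2, and the 2 most abundant per list; list genes without overlap, those listed at an unadjusted p, cell markers and rare receptors are named after their values were seen. Python 3.11.15 was used for tables and seed matches.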

Additional observations from a re-analysis of the deposited data

Results flagged for a closer look

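In the 4 control libraries, 10 genes (Dicer1 and the 9 members) were checked for a library far from the others with Dixon's test, and 2 were beyond its 95% critical value of 0.829. For normally distributed values chance gives such a flag in about 1 of 20 groups. The test was run on CPM without a log scale, where that rate need not hold. Cd274 was at 367 CPM in control replicate 4, with a gap of 0.837 of the whole range to the next control. Icosl was at 22.8 CPM in control replicate 3, with a gap of 0.876 of the range. The values of Irf1, and of Ccr7 and Ccl22, in these libraries stand beside the genes in the report, and no cause was tested.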

How the results depend on the processing

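None of the 9 members passed under any of the edgeR and limma settings, or in DESeq2 with all libraries; in DESeq2 without control replicate 4, a fit added after seeing the data, 1 did, Cd274 at 1.79. Cd86 and Cd276 stayed positive in all 26 alternatives, at 0.57 to 0.78 and 0.52 to 0.84. Cd80 changed sign to 0.02 in limma-voom, 0.42 with quality weights and 0.38 with the L code, and ranged from -0.34 to 0.43 with single libraries left out (DESeq2 without Dicer1-deleted replicate 2 gave 0.27, without control replicate 3 0.44). Havcr2 changed sign to 0.33 with quality weights, 0.35 with the L code and 0.00 with the length correction, and ranged from -0.24 to 0.31 (DESeq2 0.29 and 0.33, without Dicer1-deleted replicate 2 and control replicate 4). Lgals9 ranged from -0.34 to 0.04 (DESeq2 0.00 without Dicer1-deleted replicate 1, 0.04 without control replicate 2). The difference in the Cd274 to Pdcd1lg2 ratio ranged from -0.09 to 0.97, and was -0.05 without Dicer1-deleted replicate 3. Icosl was 0.71 and 0.44 and Pdcd1lg2 0.62 and 1.37 with quality weights and the L code. Pdcd1lg2 has no value with the filter of 10 CPM in 3 libraries, which it does not reach.

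Over all genes 4 passed in edgeR, against 405 in DESeq2, 2 in limma-voom, 80 with quality weights, 42 with no filter, 1 with the filter of 10 CPM, 0 with the L code and 10 with the length correction. Leaving out single libraries gave 0 to 3 in edgeR, and in DESeq2 319, 338 and 396 without Dicer1-deleted replicates 1 to 3 and 237, 333, 304 and 370 without control replicates 1 to 4. The causes were not tested. Depth is lowest for Pdcd1lg2, which rests on 46 to 226 reads per library, while each other member has at least 270. No paired analysis was possible because the labels give the libraries no shared replicate numbers.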
